A study of Mus musculus with 6 samples.

Results

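Lysosomal cathepsins are the proteases that break down proteins inside lysosomes and endosomes. The group described here holds 9 cathepsin genes, Ctsb, Ctsc, Ctsd, Ctse, Ctsh, Ctsl, Ctss, Ctsw and Ctsz, together with Cst3, which encodes the inhibitor cystatin C. The 10 genes were chosen by their mouse symbols, each matched to 1 Ensembl identifier, out of 46078 genes in the count tables, and all 10 passed the filter on low counts. The study sequenced total RNA of mice in 2 groups, 3 libraries labelled JMML and 3 labelled WT (wild type). JMML, juvenile myelomonocytic leukemia, is a disease of young children in which monocytic and granulocytic cells overgrow; the labels give it as the genotype or variation of those mice. By its title the series concerns a leukemia model with blood formation of the fetal kind that persists after birth. The labels give no tissue, age, strain or altered gene for either group, and do not say whether replicates are separate animals. The p-values below therefore set each group difference against the spread between libraries within the groups, which need not be that between animals.

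Most cathepsins are made as inactive precursors, are sorted to the lysosome and become active in its acid interior. Ctsb, Ctsc, Ctsh, Ctsl, Ctss, Ctsw and Ctsz encode cysteine proteases of the papain family, whereas Ctsd and Ctse encode aspartic proteases of the pepsin family. Macrophages, monocytes and dendritic cells are rich in cathepsins, which digest engulfed material, trim the invariant chain and peptides for MHC class II, and activate the serine proteases of neutrophil granules. Cystatin C blocks papain-like cathepsins and is mainly secreted. Cathepsin E lies largely outside lysosomes and is known from red cells, stomach and some immune cells, and cathepsin W is known from natural killer (NK) and cytotoxic T cells, so these genes share the family more than the compartment.

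Total counts lay between 91976512 and 108395459 in JMML libraries, against 47096464 to 61656272 in WT libraries. Values below are scaled CPM, which are CPM on library totals corrected by the TMM method of edgeR. The lowest count of any of the 10 genes in any library was 159, so counting error was small beside the spread between libraries. JMML replicates 1 and 2 have sample identifiers ending in F, and the other 4 libraries have identifiers ending in M. Xist, the transcript of the inactive X chromosome, had 49961 or more counts in the F libraries and 36 or fewer in the M libraries, while 4 Y-linked genes summed to 0 in the F libraries and to 10884 or more in the M libraries. Sex thus differs along with the group in part, and JMML replicate 3 alone can be set against WT within the M libraries. In that comparison, with 1 JMML library, the spread comes from the 3 WT libraries and JMML is assumed to vary like them. A fit that includes the letter also draws its group difference from JMML replicate 3 against WT. JMML replicate 3 has an identifier that begins like that of WT replicate 3, for a reason not stated.

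The promoters of 6 of the 10 genes were found among RefSeq sequences (GRCm38.p6), each from 250 bases before to 50 after the transcription start used there. Shown are those of Ctss and Cst3, which were higher in JMML, and those of Ctsd and Ctsl, which did not pass the test. The windows of Ctsc and Ctsz, also higher, are not printed. So few windows cannot show whether a motif goes with the test result. Capitals mark 4 short motifs, searched on both strands: CACGTG (the E-box core bound by TFEB and its relatives, the regulators of lysosomal genes), GAGGAA (a core bound by PU.1, a myeloid factor), an IRF-type motif (GAAA, any 2 bases, GAAA, as bound by interferon regulatory factors) and GGGCGG (the GC box). TTCCTC and CCGCCC are GAGGAA and GGGCGG on the opposite strand.
Ctss, chr3:95526536-95526835, plus strand: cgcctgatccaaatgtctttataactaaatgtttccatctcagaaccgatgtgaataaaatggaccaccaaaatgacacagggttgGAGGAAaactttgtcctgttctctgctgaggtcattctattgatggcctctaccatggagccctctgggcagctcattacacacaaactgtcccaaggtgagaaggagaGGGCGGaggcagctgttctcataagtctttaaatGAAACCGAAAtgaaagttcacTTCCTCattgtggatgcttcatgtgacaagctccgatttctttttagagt
Cst3, chr2:148875463-148875762, minus strand: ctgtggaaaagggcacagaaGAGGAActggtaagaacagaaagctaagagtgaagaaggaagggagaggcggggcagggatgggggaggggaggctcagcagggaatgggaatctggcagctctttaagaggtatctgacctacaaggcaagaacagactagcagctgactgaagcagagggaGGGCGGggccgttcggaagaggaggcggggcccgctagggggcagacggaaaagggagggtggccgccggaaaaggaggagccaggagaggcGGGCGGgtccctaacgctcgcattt
Ctsd, chr7:142387778-142388077, minus strand: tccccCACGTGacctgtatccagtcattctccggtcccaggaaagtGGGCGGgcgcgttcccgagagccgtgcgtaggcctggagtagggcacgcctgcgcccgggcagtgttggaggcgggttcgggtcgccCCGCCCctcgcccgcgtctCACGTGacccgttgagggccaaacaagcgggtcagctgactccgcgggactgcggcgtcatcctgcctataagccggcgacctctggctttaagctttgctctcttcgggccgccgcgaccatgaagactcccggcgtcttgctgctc
Ctsl, chr13:64370471-64370770, minus strand: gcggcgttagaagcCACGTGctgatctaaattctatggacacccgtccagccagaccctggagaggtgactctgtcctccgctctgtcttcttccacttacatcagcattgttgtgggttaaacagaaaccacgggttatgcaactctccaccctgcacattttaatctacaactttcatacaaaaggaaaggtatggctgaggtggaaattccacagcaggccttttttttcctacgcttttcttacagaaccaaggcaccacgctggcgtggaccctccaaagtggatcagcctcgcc
The E-box core began at positions -245 and -98 in the Ctsd window and at -236 in that of Ctsl, counted from the start site at 1. It was not in the windows of Cst3, Ctsc, Ctss and Ctsz. The Ctsl window lies wholly inside the gene as annotated by GENCODE (chr13:64359337-64370890), so its E-box is not upstream of that gene model. The start sites used for Ctsd and Cst3 also lie inside their annotated genes. Of 32544 distinct promoter windows of this length, 7.2% held it. GAGGAA occurred in the windows of Ctss, Ctsc and Cst3 and in 28.1% of all windows. The IRF-type motif occurred once, at -21 in Ctss, and in 3.4% of all windows. GGGCGG was present in the windows of Cst3, Ctsc, Ctsd, Ctss and Ctsz, where a pair of matches in Ctsz overlapped, and in 35.9% of all windows. These matches are descriptions of the letters, not of binding.

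Cystatin C and 4 cysteine cathepsins, Ctss, Ctsc, Ctsh and Ctsz, were each more than 2-fold higher in JMML, while Ctsb, Ctsd, Ctsl, Ctsw and Ctse did not pass the test. By the quasi-likelihood test of edgeR, with p adjusted over 18097 genes after Benjamini and Hochberg, 5 of the 10 genes were higher at an adjusted p under 0.05, against 12.4% of all genes tested (26.2% in either direction). All 5 were at least 2-fold higher, against 4.01% of all genes. None was lower, against 13.8% of all genes; 1 was lower at an unadjusted p under 0.05 (21.6% of all genes), and the DESeq2 Wald test and limma-voom each called 1 lower (16.9% and 14.7% of all genes). That gene was Ctse in every case. The median log2 fold change was 0.80 over the 10 genes and −0.02 over all genes tested. The JMML values lay wholly above the WT values for 7 genes, against 22.9% of all genes, and wholly below them for Ctse, against 24.6% of all genes, and the groups overlapped for Ctsl and Ctsw. In bulk RNA a change in the number of cells of a type and a change in RNA per cell cannot be told apart.

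**Figure D1:**
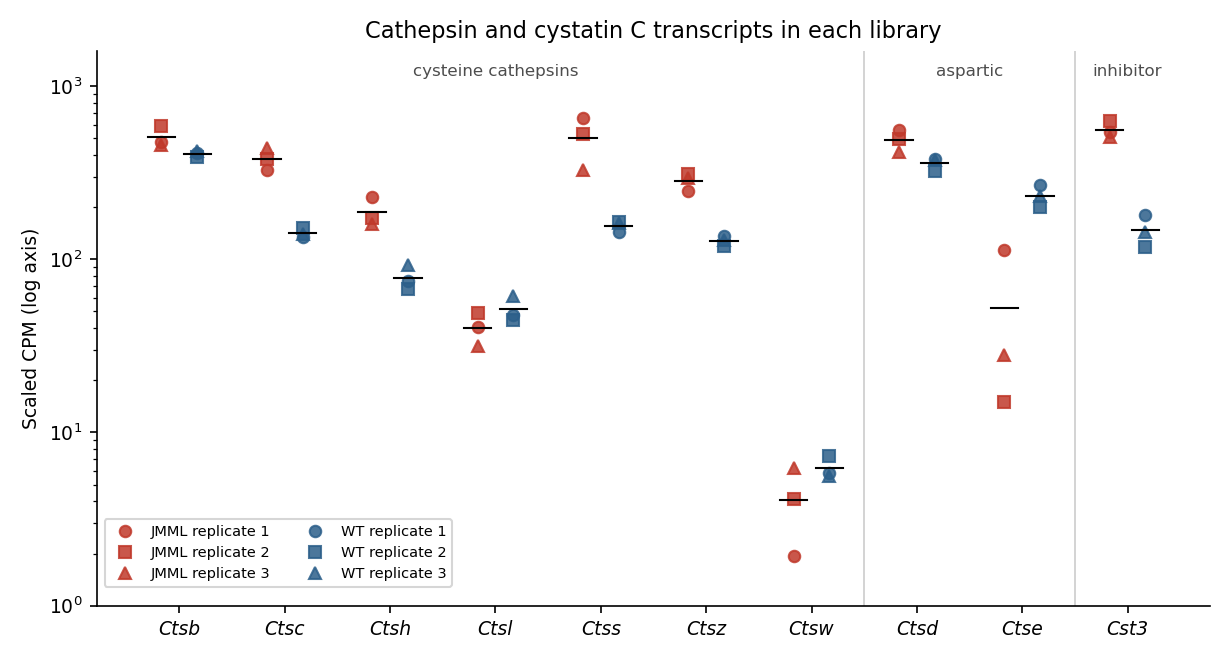
Scaled CPM (log axis) of the 7 cysteine cathepsins, the 2 aspartic cathepsins and Cst3 in each library, with 1 point per library, JMML left of WT, and a line at each group mean (n = 3). The groups are apart for Ctsc, Ctsh, Ctss, Ctsz and Cst3, close together for Ctsb, Ctsd and Ctsl, and Ctse spreads from 15.1 to 113 within JMML.

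Cst3 (chr2:148871722-148875692, minus strand), the inhibitor of the group, had 543, 628 and 509 scaled CPM in JMML replicates 1, 2 and 3, against 179.7, 117 and 144 in WT replicates 1, 2 and 3. Every JMML library was far above every WT library, and the JMML libraries were close to each other. The means were 559.7 ± 61.5 in JMML and 147 ± 31.2 in WT (SD, n = 3 each), a log2 fold change of 1.93 ± 0.18 (SE; adjusted p = 0.00215, edgeR), the highest of the 10 genes.

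Ctss (chr3:95526786-95556403, plus strand) encodes cathepsin S, which carries out late steps of invariant chain breakdown in antigen-presenting cells. It had 654, 532 and 329 scaled CPM in JMML replicates 1, 2 and 3, against 144, 163 and 163 in WT replicates 1, 2 and 3. The WT libraries were nearly equal, while JMML replicate 3 stood below the other JMML libraries and still above WT. The log2 fold change was 1.69 ± 0.24 (adjusted p = 0.00479, edgeR), and with the letter of the identifier as a covariate it was 1.07 (adjusted p = 0.0186), and in the M libraries alone, with 1 JMML library, it was 1.11. The summed scaled CPM of 6 monocyte markers was 5544, 5570.1 and 2834 in JMML replicates 1, 2 and 3, against 2142 to 2364 in WT. Of the 6, 3 were called higher (5 without JMML replicate 3), none was lower and none was at 0. With the identifier letter, and with library totals alone, 2 were higher and 1 was lower. Most of that sum was Fn1, which was not called and had 2600.4, 2622 and 705 scaled CPM in JMML replicates 1, 2 and 3, and F13a1, which was called higher. Ly6c2, also called higher, was instead lowest in JMML replicate 1, with 526, 695 and 640.1 in JMML replicates 1, 2 and 3. Cx3cr1 was not called but went the other way. It had 48.2, 54.3 and 36.2 in JMML replicates 1, 2 and 3, against 58.2 to 62.7 in WT. These markers were named after their values were seen, and their part in the result was not tested.

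Ctsc (chr7:88278085-88310888, plus strand) encodes cathepsin C, a dipeptidyl peptidase that activates granule serine proteases. It had 327, 380.3 and 437 scaled CPM in JMML replicates 1, 2 and 3, against 135, 151 and 141 in WT replicates 1, 2 and 3. The groups were wide apart, and unlike Ctss the highest JMML value was that of replicate 3. The log2 fold change was 1.42 ± 0.14 (adjusted p = 0.00219, edgeR).

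Ctsh (chr9:90054152-90076089, plus strand), which encodes an aminopeptidase, had 229, 173 and 159 scaled CPM in JMML replicates 1, 2 and 3, against 74.5, 67.4 and 92.4 in WT replicates 1, 2 and 3. Its log2 fold change was 1.26 ± 0.18 (adjusted p = 0.00481, edgeR). Ctsz (chr2:174427493-174439039, minus strand), which encodes the carboxypeptidase cathepsin Z, also called X, had 248, 312 and 294 scaled CPM in JMML replicates 1, 2 and 3, against 137, 119 and 129.7 in WT replicates 1, 2 and 3. For both genes the lowest JMML library exceeded the highest WT library. The log2 fold change of Ctsz was 1.15 ± 0.13 (adjusted p = 0.00276, edgeR).

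These 5 genes were called higher in each of the 16 alternative settings, in which 5.02% to 15.1% of all genes were called higher. The M libraries alone had the lowest such share, 5.02%, and the fit with the identifier letter had 5.35%, and in both the JMML side rests on replicate 3. Over those settings the log2 fold changes were at least 1.75 for Cst3, 1.24 for Ctsc, 1.07 for Ctss, 1.02 for Ctsh and 0.97 for Ctsz.

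**Figure D2:**
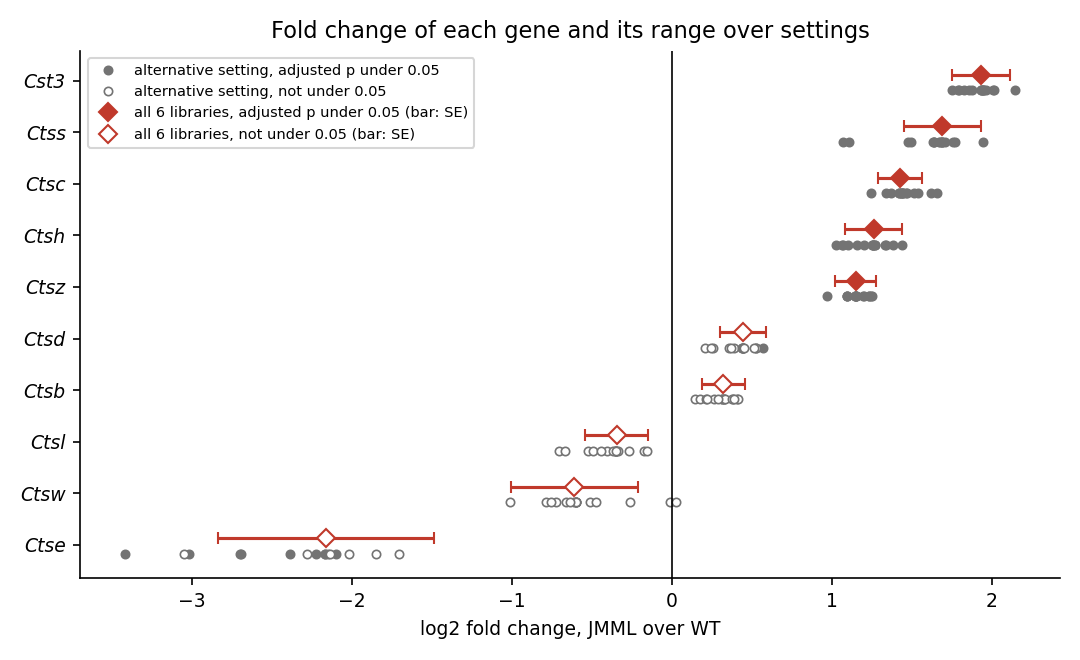
Log2 fold change (JMML over WT) of each gene in all 6 libraries (diamonds, bars are SE) and in 16 alternative settings (circles), filled where the adjusted p is under 0.05. Cst3, Ctss, Ctsc, Ctsh and Ctsz are filled throughout, Ctsb, Ctsl and Ctsw are open throughout, and Ctse and Ctsd are mixed.

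Cathepsins B, D and L, which most tissues express, had smaller differences that did not pass the test. Ctsb, which encodes a protease that acts both within chains and at their ends, had 477, 590.3 and 459 scaled CPM in JMML replicates 1, 2 and 3, against 410.0, 391 and 422 in WT replicates 1, 2 and 3. All JMML values were above all WT values by a small margin, and the log2 fold change of 0.32 ± 0.13 did not pass the test (adjusted p = 0.117, edgeR). Ctsb shares 774 exonic bases with Fdft1 on the opposite strand, which had 710 to 3187 counts, far below the 20387 or more of Ctsb.

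Ctsd, the main aspartic protease of lysosomes, had 558, 498 and 416 scaled CPM in JMML replicates 1, 2 and 3, against 380.0, 326 and 377 in WT replicates 1, 2 and 3. The lowest JMML value was just above the highest WT value. The log2 fold change was 0.44 ± 0.15 (adjusted p = 0.0597, edgeR), and 3 of 16 settings called it higher: the DESeq2 Wald test (adjusted p = 0.0264; 15.1% of all genes higher), the fit without a filter on low counts (adjusted p = 0.0433; 6.95%) and the fit without JMML replicate 3 (adjusted p = 0.0415; 9.50%).

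Ctsl encodes an endopeptidase with broad action in lysosomes. It had 40.7, 48.9 and 31.5 scaled CPM in JMML replicates 1, 2 and 3, against 47.8, 44.6 and 61.7 in WT replicates 1, 2 and 3. The groups overlapped, and the log2 fold change was −0.35 ± 0.20 (adjusted p = 0.223, edgeR). Annotated neighbours share 1742 exonic bases with Ctsl on the opposite strand and 395 on its own strand. For Ctsd, 808 exonic bases lie in another gene model on its strand. None of these neighbours is among the counted genes, so whether the overlap affects the counts of Ctsd and Ctsl cannot be told.

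Ctse (chr1:131638306-131675505, plus strand) went the other way and was uneven among JMML libraries. It had 113, 15.1 and 28.1 scaled CPM in JMML replicates 1, 2 and 3, against 267, 200.3 and 231 in WT replicates 1, 2 and 3. All JMML libraries lay below all WT libraries, but JMML replicate 1 held several times the level of the other JMML libraries, a coefficient of variation of 102% in JMML and 14.4% in WT. The log2 fold change was −2.16 ± 0.67 (adjusted p = 0.0512, edgeR). It was called lower in 10 of 16 settings, in which 6.10% to 19.1% of all genes were called lower over all 16, with values between −3.42 and −1.71. Without JMML replicate 1 it was −3.42 (adjusted p = 0.00387). One of the 10 is the comparison of M libraries (−3.02; 6.44% of all genes lower), which has 1 JMML library and so does not contain the spread of Ctse within JMML. With the identifier letter the value of −3.05 did not pass (adjusted p = 0.0974), nor did the values without any 1 of the other 5 libraries (adjusted p between 0.0806 and 0.115).

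Erythroid markers showed the same order within JMML. Their summed scaled CPM was 196.5, 35.0 and 79.4 in JMML replicates 1, 2 and 3, against 919, 531 and 729 in WT replicates 1, 2 and 3, 3 of 5 markers were called lower, and none was at 0. None of the 5 was called with the identifier letter, or when JMML replicate 3, WT replicate 1 or WT replicate 2 was left out. Their median log2 fold change was nonetheless −3.39 with the identifier letter, against −2.76 without it. In the M libraries alone, with 1 JMML library, it was −3.36. All 5 were called lower with library totals alone, the DESeq2 Wald test, limma-voom, no low-count filter, and without JMML replicate 1. The number was 4 with the filter of 50 counts, the replicate block and without JMML replicate 2, and 1 without WT replicate 3. B-cell markers were lower as well, 6 of 6 (4 with the identifier letter and 3 in the M libraries), with sums of 9.61 to 14.6 in JMML and 92.1 to 365 in WT, but they did not share the high value of JMML replicate 1. The part of either cell type in the level of Ctse was not tested.

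Ctsw was the lowest of the genes, at 1.94, 4.14 and 6.21 scaled CPM in JMML replicates 1, 2 and 3, against 5.86, 7.34 and 5.61 in WT replicates 1, 2 and 3. JMML replicate 3 lay inside the WT range and the other JMML libraries below it. The log2 fold change was −0.61 ± 0.40 (adjusted p = 0.282, edgeR), with −0.01 once the identifier letter was in the fit. NK and cytotoxic T cell markers summed to 51.0, 71.8 and 92.4 scaled CPM in JMML replicates 1, 2 and 3, against 55.4 to 68.1 in WT, with 1 of 6 called lower (Cd8a), none higher and none at 0. Most of the sum was Nkg7, with 38.1, 56.5 and 69.2 in JMML replicates 1, 2 and 3, while Klrd1 was highest in JMML replicate 1, with 5.49, 3.09 and 3.85. In the M libraries 2 of the 6 were called higher and none lower. These markers were named after their values were seen, and their part was not tested.

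**Figure D3:**
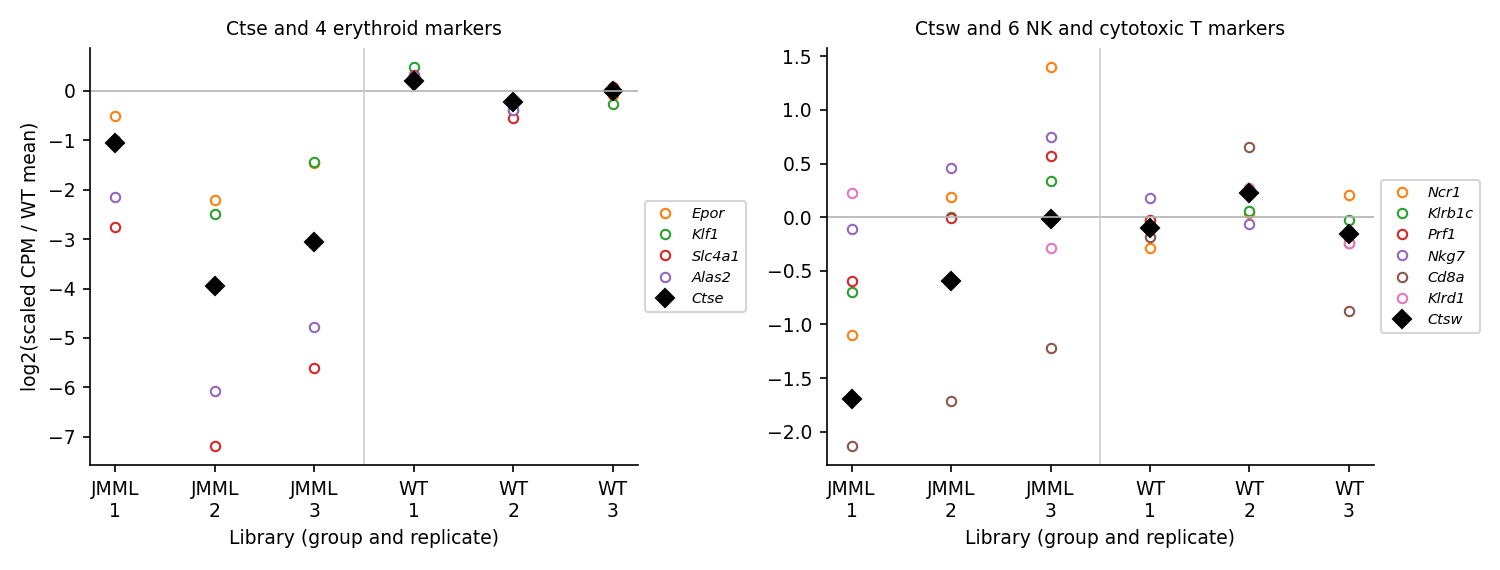
Log2 ratio of scaled CPM to the WT mean in each library for Ctse with 4 erythroid markers (left) and Ctsw with 6 NK and cytotoxic T cell markers (right), with diamonds for the cathepsin and circles for markers. Among JMML libraries, Ctse and the 4 erythroid markers are highest in replicate 1 and lowest in replicate 2, while Ctsw is lowest in JMML replicate 1.

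Levels of different genes can be compared roughly after division by length, here as scaled CPM per kilobase of annotated exon. The length used joins all annotated exons of a gene, from 1266 bases for Cst3 to 6489 for Ctsl. It may exceed that of the transcripts present, so the order and the shares depend in part on the annotation. Before division Ctsb had the highest WT mean, 408 scaled CPM. In JMML the order was Cst3 (442 ± 48.6, SD, n = 3), Ctss (372 ± 121), Ctsd (209 ± 30.1), Ctsz (197 ± 23.0), Ctsb (84.1 ± 11.8), Ctsc (65.7 ± 9.49), Ctsh (41.6 ± 8.29), Ctse (16.4 ± 16.8), Ctsl (6.22 ± 1.35) and Ctsw (2.17 ± 1.13). In WT it was Ctsd (153 ± 13), Cst3 (116 ± 24.7), Ctss (115 ± 7.97), Ctsz (89.1 ± 6.19), Ctse (73.5 ± 10.6), Ctsb (67.4 ± 2.61), Ctsc (24.5 ± 1.35), Ctsh (17.4 ± 2.86), Ctsl (7.91 ± 1.40) and Ctsw (3.32 ± 0.496). Library ranges of neighbours in this order overlapped in JMML for Cst3 with Ctss, Ctsd with Ctsz, Ctsh with Ctse and Ctse with Ctsl, and in WT for Ctsd with Cst3, Cst3 with Ctss, Ctsz with Ctse and Ctse with Ctsb. Cst3 and Ctss stood above 99.2% and 99.1% of tested genes in level per kilobase in JMML, and both above 98.0% in WT, whereas Ctsw stood above 43.5% in JMML and 49.2% in WT.

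Cysteine and aspartic cathepsins, taken as sums, differed in how the groups compared; these sums and shares are given without a test. Summed over the 7 cysteine cathepsins, scaled CPM was 1978, 2040.0 and 1715 in JMML replicates 1, 2 and 3, against 954, 943 and 1015 in WT replicates 1, 2 and 3. For the aspartic Ctsd and Ctse together it was 671, 513 and 445 in JMML, against 647, 526 and 608 in WT. The cysteine sums did not overlap between groups and had a ratio of means of 1.97, whereas the aspartic sums overlapped and had a ratio of 0.914. The aspartic sum joins opposite differences, 1.36-fold for Ctsd and 0.22-fold for Ctse, neither of them called. The cysteine sum is also mixed, with Ctsb at 1.25-fold, Ctsl at 0.79-fold and Ctsw at 0.65-fold, none of them called. The contrast is thus one of sums, not a trait of every member of a class.

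Of the summed level per kilobase of the 9 cathepsins, Ctss took 43.0%, 37.8% and 29.3% in JMML replicates 1, 2 and 3, against 18.8%, 23.1% and 21.0% in WT. Ctse took 3.18%, 0.459% and 1.07% in JMML, against 14.9%, 12.1% and 12.8% in WT. Ctsd took 21.0 ± 0.516% in JMML and 27.8 ± 1.04% in WT, and Ctsz 20.3 ± 4.68% in JMML and 16.1 ± 0.550% in WT (SD, n = 3). The level of Cst3 per kilobase was 0.506, 0.606 and 0.627 times the sum of the 7 cysteine cathepsins in JMML replicates 1, 2 and 3, against 0.445, 0.291 and 0.337 times in WT, so transcripts of the inhibitor were higher relative to its targets in every JMML library. These are ratios of transcripts, not of protein, and they depend on the exon lengths used.

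**Figure D4:**
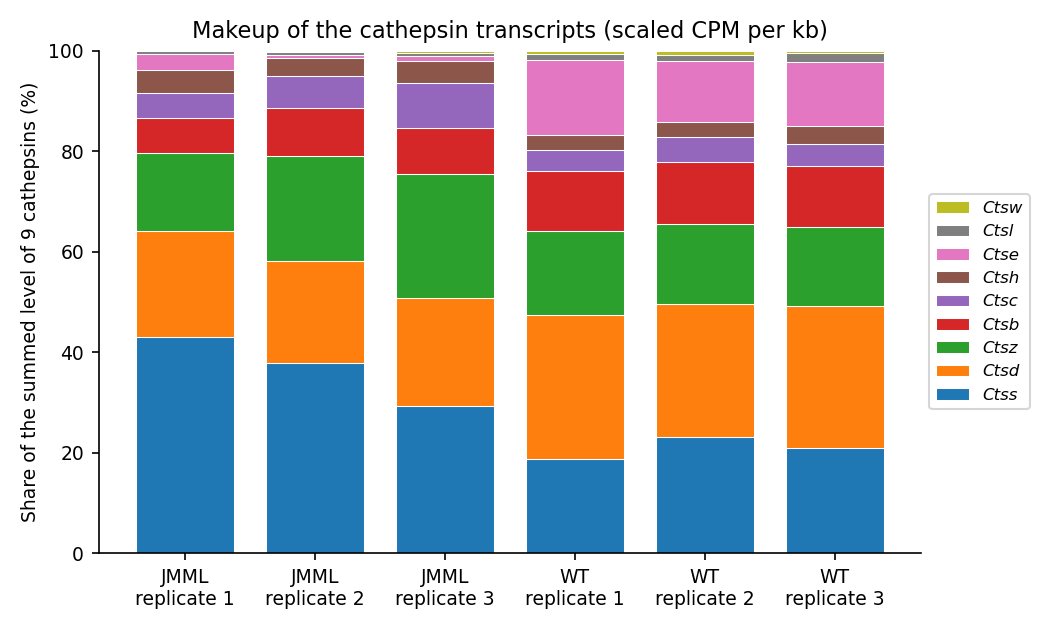
Share of each of the 9 cathepsins in their summed scaled CPM per kilobase, in percent, with 1 stacked bar per library, JMML left of WT. Ctss is the largest block in all JMML bars, at 29.3% to 43.0%, and Ctse, at 12.1% to 14.9% in WT, is a thin band in JMML.

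Over the 6 libraries, the genes whose log2 scaled CPM was most like that of each member (Pearson r, among 11352 other genes with a mean log2 CPM of at least 2) are given as a description. Ctss was most like Tlr2, Mcl1 and Stard5 (r of 0.998 or more), Ctsc like Tbk1, Gna15 and Ifi205, Ctsh like Bloc1s2, Gm12854 and Cyp4f18, Ctsz like Adipor2, Tom1 and Csf2rb, and Cst3 like Got2-ps1, Sumf1 and Efhd2. Ctse was most like Lancl1, 6030468B19Rik and Blvrb, which encodes a biliverdin reductase abundant in red cells; Blvrb had 73.5, 20.7 and 34.7 scaled CPM in JMML replicates 1, 2 and 3, against 145, 110.2 and 126 in WT. Ctsw was most like Il2rb (r = 0.984), an interleukin receptor chain of NK and T cells, Pds5a and Yeats2. Ctsb was most like Pitpnm1, Stom and Rest, Ctsd like Smim4, Gm10736 and Rpl36, and Ctsl like Pttg1ip, Rasal2 and Zfp689. With 2 groups of 3 libraries many genes reach such values.

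Other cathepsins also differed between the groups. The counts called in each list, here and for the markers, stand beside 12.4% of all genes higher and 13.8% lower. With the identifier letter those shares were 5.35% and 6.91%, and the ranges over all settings are given above. In the lists below, 1 gene lower of 11 or of 12 is no more than the share of all genes. Of 14 further cathepsin genes, 5 had enough counts to test, 3 were higher and 1 was lower, and 6 of the rest had no counts in any library. Ctsk, the collagen-degrading cathepsin of osteoclasts, had 141, 167 and 94.5 scaled CPM in JMML replicates 1, 2 and 3, against 20.1, 24.4 and 58.9 in WT replicates 1, 2 and 3 (log2 fold change 1.96 ± 0.42). The groups were apart, but the call ended with the identifier letter (1.45), in the M libraries (1.49) and without WT replicate 2 (1.75). All 5 osteoclast markers were called higher, with sums of 105 to 175 in JMML and 53.4 to 90.7 in WT, and Calcr at 0 in WT replicates 1 and 3. With the identifier letter 1 of the 5 was called higher, likewise 1 in the M libraries, and 3 were when JMML replicate 1 or 2 or WT replicate 1 or 2 was left out; their part was not tested. Ctsg, a serine protease of neutrophil granules, averaged 546 ± 42.6 scaled CPM in JMML and 273 ± 37.7 in WT (adjusted p = 0.0047). Ctsa, a carboxypeptidase (0.48 ± 0.13), was higher and Ctsf, a cysteine cathepsin (−1.28 ± 0.39), was lower, although the call of Ctsa ended in 9 and that of Ctsf in 6 of the settings. Ctso did not pass (−0.43 ± 0.22).

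Among 10 tested genes of other cathepsin inhibitors, 3 were higher and 2 lower, with a median log2 fold change of 1.57. Cstb, the inhibitor of the cell interior known as stefin B, averaged 35.0 ± 4.72 scaled CPM in JMML and 14.1 ± 1.09 in WT (1.31 ± 0.15). Serpinb1a, which encodes an inhibitor of granule serine proteases, averaged 447 ± 51.7 in JMML and 216 ± 19.4 in WT (1.05 ± 0.13). Stfa2l1, of the stefin A cluster, was higher (2.57 ± 0.75), but its call ended in 6 settings and the cluster holds near-identical copies whose counts are uncertain. The 2 lower genes were the near-copies Ctla2a (−1.55 ± 0.32) and Ctla2b (−1.59 ± 0.40), inhibitors that resemble a cathepsin propeptide. The number higher was 5 by the Wald test of DESeq2, 7 by limma-voom and without WT replicate 3, and 8 when low counts were not filtered. It was 2 in 6 settings, those in which the call of Stfa2l1 ended, and the number lower was 1 in 6 settings.

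The machinery around the cathepsins rose in part. Of 18 genes for acidification of the lysosome, 17 were higher and 1 was lower, with a median log2 fold change of 0.76. Atp6v1a, the catalytic subunit of the proton pump, averaged 277 ± 24.2 scaled CPM in JMML and 137 ± 4.83 in WT, and the 1 lower gene, named after its value was seen, was Atp6v0a1 (−0.70 ± 0.14). With the identifier letter 10 of the 18 were higher, and in the M libraries 12. Of 11 sorting and processing genes, 4 were higher and 1 lower (median 0.30), among them Psap, the saposin precursor, at 2775 ± 240.2 in JMML and 1193 ± 142 in WT, the sorting receptor gene Sort1 (0.92 ± 0.13) and the mannose 6-phosphate receptor gene M6pr (0.66 ± 0.11). The lower gene, Gga3 (−0.66 ± 0.16), encodes a sorting adaptor and lost its call in 6 settings.

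Among 27 other lysosomal hydrolases and membrane proteins, 17 were higher and none lower, with a median log2 fold change of 0.75. They include Ppt1 (1.47 ± 0.17), Npc2 (1.32 ± 0.14), Neu1 (1.03 ± 0.11) and Gusb (1.02 ± 0.11), which serve the breakdown of glycans and lipids. Of 12 lysosomal transcription factors and their regulators, 6 were higher and 1 lower (median 0.45). Tfec, a relative of TFEB found in myeloid cells, averaged 58.1 ± 9.10 scaled CPM in JMML and 25.9 ± 2.06 in WT (1.17 ± 0.15), while Tfeb itself did not pass (0.46 ± 0.23; named for its role). The 6 higher became 2 or 3 in 10 settings, among them 2 with library totals alone.

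Genes of pathways in which cathepsins act were also higher, though not all of them. All 6 genes of the class II pathway rose, such as Cd74, the invariant chain that cathepsin S cuts, at 777 ± 165 scaled CPM in JMML and 112 ± 17.1 in WT (2.79 ± 0.20). Counts of Cd74 were 1.15, 1.79 and 1.90 times those of Ctss in JMML replicates 1, 2 and 3, against 0.911, 0.652 and 0.606 times in WT. Of 6 serine proteases that cathepsin C activates, 4 were higher: Ctsg, Prtn3 (0.88 ± 0.18), Elane (0.63 ± 0.16) and Prss57 (0.65 ± 0.17), but Elane and Prss57 lost their calls with library totals alone, without JMML replicate 3, and when WT replicate 1 or 2 was left out. Of 4 genes for endosomal Toll-like receptors and their chaperone, 3 were higher, with Tlr3 at 48.3 ± 8.93 in JMML and 4.02 ± 0.538 in WT (3.59 ± 0.20), the chaperone gene Unc93b1 at 354 ± 34.0 in JMML and 177 ± 17.7 in WT, and Tlr9 (0.60 ± 0.17), whose call ended in 9 settings.

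**Figure D5:**
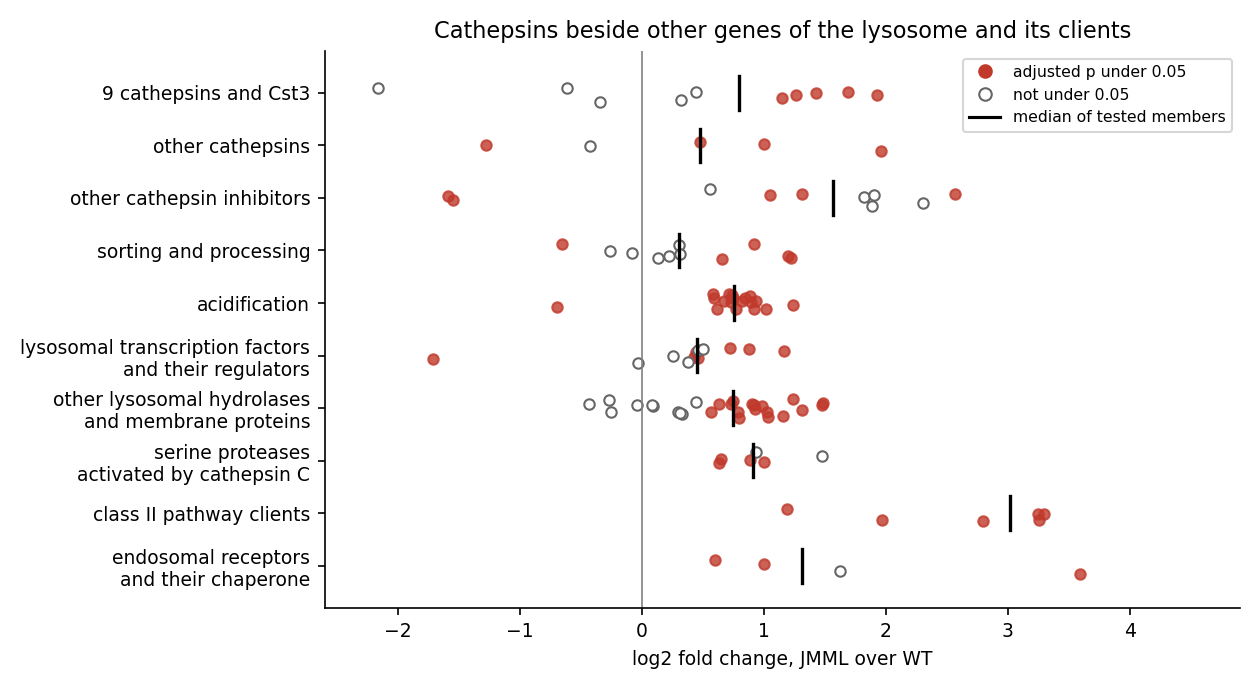
Log2 fold change (JMML over WT) of each tested gene in the 10 cathepsin and cystatin C genes and in 9 lists of related genes, filled where the adjusted p is under 0.05, with a line at each list's median. Of the 18 acidification genes 17 lie above 0 around a median of 0.76, while the 10 genes spread from −2.16 (Ctse) to 1.93 (Cst3).

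Markers of other myeloid cells, of dendritic cells and of endothelial cells are given beside these results. Of 10 macrophage markers 1 was higher and 3 were lower, with sums of 143 to 363 in JMML and 314 to 522 in WT. With the identifier letter none was higher and 8 were lower (median log2 fold change −2.72, against −1.25 without it), and in the M libraries none was higher and 7 were lower. Conventional dendritic cell markers had 4 of 6 higher and 1 lower, with sums of 98.7 to 127 in JMML and 49.4 to 61.1 in WT, and Cd209a at 0 in JMML replicates 1 and 2. Neutrophil markers had 2 of 6 higher (1 with the identifier letter and 4 without WT replicate 3), with sums of 11927 to 22429 in JMML and 6672 to 13264 in WT, which overlap. The plasmacytoid dendritic cell list had 1 of 4 lower and the endothelial list 4 of 4 lower, with sums of 41.7 to 121 and 43.2 to 62.4 in JMML, against 88.8 to 108 and 191 to 331 in WT. No other marker in these lists was at 0 in a library, and the part of each cell type in the cathepsin levels was not tested.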

How the data were processed

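Total RNA of 3 JMML and 3 WT mouse libraries was sequenced after stranded, ribosome-depleted preparation, per the labels' protocols. The authors deposited raw counts per Ensembl gene, with no normalization. GRCm38 is the build named per the submitters' processing notes, whose tools include STAR (2.5.3a), StringTie (1.3.3b) and DESeq2 (1.22.2), without their roles. The program that counted, its annotation, its strand setting and its use of mates are not stated there. Even numbers made up 51.6% to 58.8% of the low counts (1 to 20), so both mates of a fragment may have been counted.

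Symbols, positions and exon lengths came from GENCODE vM21 (GRCm38), which held 45229 of 46078 identifiers (98.2%). No library was a copy of another (lowest chi-square per degree of freedom between libraries, 100.8). The test was that of edgeR 4.0.16 under R 4.3.3 (filterByExpr by group, TMM, quasi-likelihood F test, Benjamini-Hochberg over 18097 genes, threshold 0.05); SE is the size of the log2 fold change over the root of F. It was checked on simulated counts. Alternatives used DESeq2 1.42.0, limma-voom (limma 3.58.1), other scalings and filters, thinning, a replicate block, the last letter of the identifier in the title (F or M, matching sex) as covariate, the M libraries alone, and each library left out. Similarity used log2(scaled CPM + 0.5). Promoter motifs and deposited counts were handled in Python 3.11.15 with pandas 2.3.3, figures with matplotlib 3.10.9.

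Members and lists were chosen with earlier results of these data known. All 10 members are named, plus from each of 9 pathway lists the 5 tested genes with the smallest p, all tested other cathepsins and the 3 most similar genes per member; other names are marked, and some genes are not reported here.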

Additional observations from a re-analysis of the deposited data

How the results depend on the processing

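Over 16 alternative settings the 10 genes gave 160 log2 fold changes. The direction and the side of the threshold held in 146 of them, 13 newly passed the threshold (Ctse in 10, Ctsd in 3), none lost it, and 1 turned its sign: Ctsw at 0.026 in the M libraries alone, where JMML is 1 library and is assumed to vary like WT. The number of genes called higher stayed at 5 or 6 of the 10 throughout. The number called lower, 0 as reported, was 1 (Ctse) with DESeq2 size factors, library totals alone, the DESeq2 Wald test, limma-voom, no filter, 50 counts in 3 libraries, the replicate block, M libraries alone and thinning, and 0 to 1 with a library left out. Over all genes, 4737 calls became 2809 with the replicate block, 2219 with the identifier letter and 2310 in M libraries alone, and 2203 to 4003 with a library left out, lowest without WT replicate 2, against 3043 without JMML replicate 2 and 3136 without WT replicate 1. Library totals alone shifted the median of all genes to −0.21 and the share of higher calls to 27.0%, against 47.4%. Without the low-count filter the median was −0.42, over the 35514 genes then tested, and the share of higher calls was 51.2%. Same-numbered libraries deviated with correlations of −0.16, 0.08 and −0.17, against −0.12 to 0.25 for the other pairs. These values show no sign of a pairing by number but cannot exclude one, since deviations were taken from means of 3 libraries. The replicate block added the call of Ctse (adjusted p = 0.0324, edgeR) and ended no call among the 10 genes. Every gene had at least 159 counts per library, and thinning to the smallest total changed 1 call among the 10, that of Ctse (adjusted p = 0.0468, against 0.0512).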
